A study of Homo sapiens with 3 samples.

Results

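The genes described here encode growth factor receptors, RAS proteins and the MAPK cascade with its inhibitors and target genes. A list of 55 genes, chosen with earlier results of these data known, was matched by symbol to a RefSeq gene table. All 55 were found among its 19974 protein-coding genes on chromosomes 1 to 22 and X. For each gene, peaks were read within 1 kb of either end of the gene span and over the span itself. The data were CUT&Tag peak lists from A2780, a human ovarian carcinoma line, grown in DMEM with serum and thawed from frozen stocks. CUT&Tag uses an antibody to bring a transposase to chromatin, so that DNA near the antibody's target is cut and sequenced. In the BPP library H3K27ac was profiled in cells given the BPP peptide, described in the series design as a competitor for phosphorylation of BIN2. H3K27ac in control cells made up the CTR library, and IgG served for background. A TAT peptide is named as comparator for RNA-seq of the same series, not for CUT&Tag. The sources used here do not give the treatment of the CTR cells, the peptide dose or the time. No genotype change was labelled in any of the 3 libraries. With 1 library per group, differences between BPP and CTR could not be checked against replicates and were not tested.

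Acetylation of histone H3 at lysine 27 (H3K27ac) marks active promoters and enhancers. Receptor tyrosine kinases bind growth factors at the cell surface and recruit adaptors such as GRB2 and SHC1, which bring the exchange factors SOS1 and SOS2 to RAS. GTP-bound RAS then activates RAF kinases, which act on MEK and, through it, on ERK. ERK induces immediate early genes and also its own inhibitors, the Sprouty, SPRED and DUSP proteins. Receptor signalling through this cascade drives proliferation in many carcinomas.

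The lists held 17841 BPP, 14836 CTR and 7701 IgG peaks. Read numbers, and with them depth, were unknown, so a place without a listed peak can still carry signal below the caller's limit. Of 8 ovarian and epithelial marker genes, KRT8 and KRT18 were marked at a gene end by both H3K27ac lists. PAX8, WT1, EPCAM, KRT19, MUC16 and CDH1 had no peak of either H3K27ac list. None of 4 immune, 3 endothelial and 4 fibroblast marker genes had a peak of either H3K27ac list. In bulk chromatin, fewer cells with the mark and less of the mark per cell cannot be told apart. Each peak carries 2 values from the authors' caller, a fold over an undescribed background and a −log10 q. These rank peaks inside 1 list, and values of both lists printed side by side are not read as a change.

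Both H3K27ac lists held a gene-end peak for 17 of the 55 genes (23.6% of all protein-coding genes), BPP alone for 4 (7.03% of all) and CTR alone for 6 (7.57% of all). The remaining 28 had none. By library, 21 of 55 had a gene-end peak in BPP (38.2%, exact 95% binomial interval 25.4 to 52.3), against 30.6% of all protein-coding genes. In CTR the count was 23 of 55 (41.8%, 28.7 to 55.9), against 31.2% of all. Both intervals include the share of all genes. No gene of the list had a gene-end peak in IgG, against 2.13% of all. Intervals here cover counting error only and treat genes as independent.

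Marked genes were spread unevenly over the roles. Of 18 receptors, 2 had a gene-end peak in either H3K27ac list (11.1%, 1.38 to 34.7), against 38.2% of all protein-coding genes. Of the other 37 genes, 25 had one (67.6%, 50.2 to 82.0). The receptor count moved with the window: 5 of 18 (27.8%) were marked with windows of 2 kb, against 42.7% of all genes, and 1 of 18 (5.56%) with windows of 500 bp, against 34.1%. The other 37 genes had 28 (75.7%) and 21 (56.8%) marked with these windows. Peak strength mattered too: at fold 5 or more, 11 of these 37 (29.7%) and 1 of 18 receptors were marked, against 21.8% of all genes. The 5000 top peaks gave the same 2 counts, against 20.5% of all genes. In both of these settings the receptor was ERBB3, marked by a BPP peak at the start of the neighbouring gene PA2G4. Over the whole span and windows, 10 of 18 receptors had a peak (55.6%, 30.8 to 78.5), against 52.3% of all genes. All 7 genes of the adaptor group were marked, as were 6 of 10 cascade kinases, 5 of 10 inhibitors and 5 of 6 transcription genes. The adaptor group holds adaptors, the exchange factors SOS1 and SOS2, and PTPN11, which encodes a phosphatase. NRAS was marked and HRAS was not, and YES1 was marked and SRC was not. The genes are few, were not sampled at random and were chosen with earlier results of these data known. These shares therefore describe the list.

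**Figure D1:**
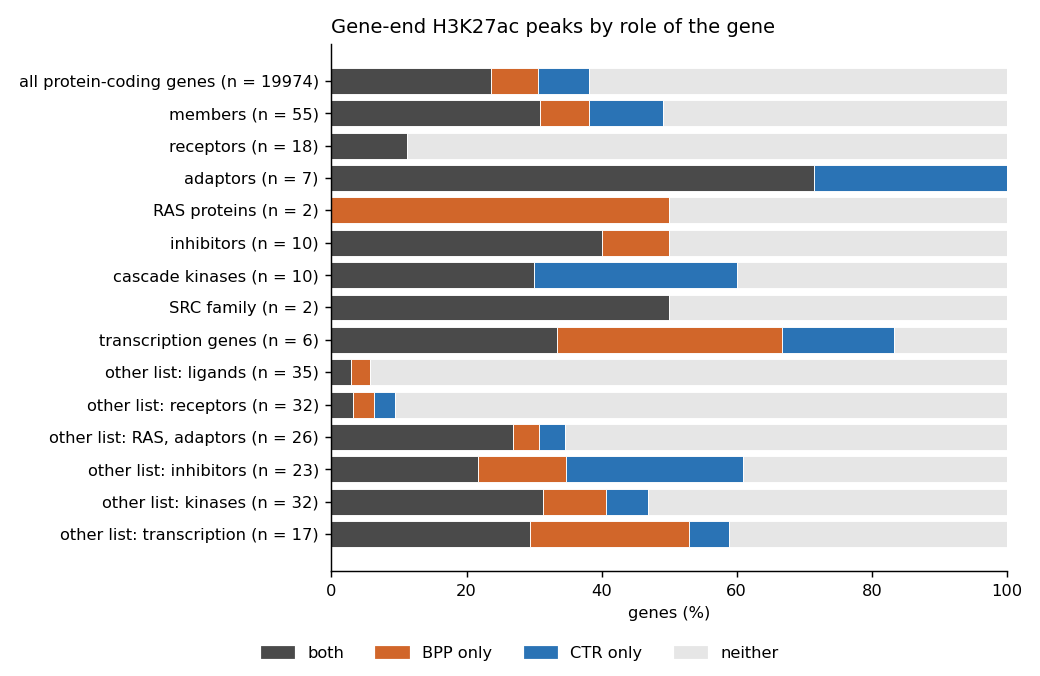
Share of genes (x axis, %) with a gene-end peak in both H3K27ac lists, in BPP only, in CTR only or in neither, for all protein-coding genes, the 55 genes, their roles, and the 6 groups of a further list of pathway genes. Receptors stand at 11.1% marked and the adaptor group at 100%, against 38.2% of all protein-coding genes.

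Promoter sequence is shown for 5 genes with high −log10 q over an annotated promoter, covering each class, since these are the places that the lists share or hold alone. Sequences are from RefSeq, GRCh38.p14, and run 5′ to 3′ from 250 bases before to 50 bases after an annotated start on the gene's strand. Entries for 46 of the 55 genes were matched. Entries for GAB1, ETV4, ETV5, ERBB3, SRC, PTPN11, DUSP5, DUSP4 and FGFR1 were not. Capitals mark motif matches on either strand. The ETS site was searched as CCGGAAG and the GC box, which SP and KLF factors bind, as GGGCGG. The AP-1 site of FOS and JUN dimers was searched as TGANTCA, and the CRE of CREB and ATF factors as TGACGTCA. The E-box was searched as CACGTG and the box bound by NF-Y as CCAAT. The CArG box is the core of the serum response element. SHC1 and FRS2 were marked in both lists, EGR1 in both lists with the CTR peak alone reaching the promoter, NRAS in BPP only and BRAF in CTR only.
SHC1, chr1:154970698-154970997, minus strand: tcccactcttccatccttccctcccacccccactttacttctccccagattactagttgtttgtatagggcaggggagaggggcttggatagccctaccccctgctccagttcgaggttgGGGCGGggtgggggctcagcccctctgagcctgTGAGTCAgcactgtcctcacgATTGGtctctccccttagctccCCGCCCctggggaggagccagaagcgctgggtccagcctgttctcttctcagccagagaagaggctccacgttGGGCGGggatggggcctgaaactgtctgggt
FRS2, chr12:69470138-69470437, plus strand: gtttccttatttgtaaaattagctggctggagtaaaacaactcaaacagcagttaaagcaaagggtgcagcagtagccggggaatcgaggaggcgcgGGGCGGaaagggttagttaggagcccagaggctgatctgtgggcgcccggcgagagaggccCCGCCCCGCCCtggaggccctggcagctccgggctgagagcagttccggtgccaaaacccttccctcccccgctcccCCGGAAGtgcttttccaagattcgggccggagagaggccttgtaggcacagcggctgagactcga
EGR1, chr5:138465229-138465528, plus strand: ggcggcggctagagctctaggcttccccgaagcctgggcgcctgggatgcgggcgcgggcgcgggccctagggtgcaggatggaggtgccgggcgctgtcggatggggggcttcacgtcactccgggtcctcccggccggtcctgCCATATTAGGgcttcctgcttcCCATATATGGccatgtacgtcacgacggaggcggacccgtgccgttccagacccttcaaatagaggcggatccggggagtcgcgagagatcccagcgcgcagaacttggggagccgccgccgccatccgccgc
NRAS, chr1:114716722-114717021, minus strand: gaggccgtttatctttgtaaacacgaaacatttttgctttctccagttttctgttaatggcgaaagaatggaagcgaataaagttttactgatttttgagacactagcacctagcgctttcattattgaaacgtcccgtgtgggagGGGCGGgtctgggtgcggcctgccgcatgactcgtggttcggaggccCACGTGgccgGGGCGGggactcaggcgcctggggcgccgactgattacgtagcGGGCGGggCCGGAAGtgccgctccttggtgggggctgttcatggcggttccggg
BRAF, chr7:140924219-140924518, minus strand: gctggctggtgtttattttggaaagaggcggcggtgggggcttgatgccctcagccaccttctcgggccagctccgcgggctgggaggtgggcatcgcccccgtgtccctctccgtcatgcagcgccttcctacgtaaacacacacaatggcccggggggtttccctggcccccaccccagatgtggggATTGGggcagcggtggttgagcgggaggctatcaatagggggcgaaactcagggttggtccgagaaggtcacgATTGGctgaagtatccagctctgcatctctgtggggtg

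The printed starts of SHC1 and BRAF lie 3.63 kb and 0.661 kb inside the gene span, and the others lie at its end. NRAS held 3 GC boxes, 1 E-box and 1 ETS site. FRS2 held 3 GC boxes, of which a pair overlaps by 1 base, and 1 ETS site. SHC1 held 3 GC boxes, 1 AP-1 site and 1 CCAAT box, and BRAF 2 CCAAT boxes. EGR1 held 2 CArG boxes, which begin 105 and 83 bases before the start. It was the only promoter with a CArG box among the 71 annotated promoters of the 46 genes, and 1.30% of all 34961 promoters in the table held one. Over the 71 promoters, 63.4% held a GC box, 31.0% a CCAAT box, 12.7% an ETS site, 8.45% an AP-1 site, 8.45% an E-box and 4.23% a CRE. Over the 22132 promoters of protein-coding genes the shares were 56.3%, 34.6%, 12.8%, 6.15%, 8.34% and 2.26% in the same order. Over the whole table, non-coding genes included, they were 45.03%, 34.6%, 10.3%, 7.68%, 7.27% and 1.85%. A match is a description of letters and not a bound site.

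Of the 71 promoters, 21 overlapped an H3K27ac peak (29.6%), against 28.5% of 22132 promoters of protein-coding genes. Median GC content was 65.3% in the 21 and 63.3% in the other 50. Over all protein-coding genes it was 64.0% in promoters with a peak and 61.0% in those without. The median number of CpG was 19 in the 21 promoters and 22 in the other 50, while over all protein-coding genes promoters with a peak had 25 and those without 16. The 21 promoters belong to 18 genes, and starts of 1 gene, such as DDR1 with 3, 9 and 11 CpG, are not independent. The differences between these medians were not tested. Receptor promoters without a peak ranged widely, from 1 CpG in 300 bases at the inner EGFR start to 55 at IGF1R. FGFR3 had 51, KIT 38, PDGFRB 11 and the outer PDGFRA start 8.

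Among receptors, AXL was the gene with an H3K27ac peak over its outer start. AXL encodes the receptor for GAS6. The BPP list held a peak there (chromosome 19, 41218908 to 41219401; fold 3.23, −log10 q 4.47) and so did the CTR list (41218862 to 41219352; fold 3.90, −log10 q 6.03). The peaks overlapped and both covered the annotated start. AXL was marked in CTR only at −log10 q of 5 or more, and in neither list at fold 5 or more or with the 5000 top peaks. ERBB3, the kinase-impaired partner of ERBB2, was the other receptor counted as marked. Its peaks (fold 5.16 in BPP and 4.38 in CTR) lay 0.875 and 0.989 kb beyond the higher-coordinate end of the span, at the annotated start of PA2G4. They are therefore not read as peaks of the ERBB3 promoter. DDR1, a collagen receptor, had 8 annotated starts and 1 peak per list inside the gene. The BPP peak had a fold of 4.01 (chromosome 6, 30883335 to 30883935) and the CTR peak a fold of 3.62 (30882770 to 30883895), and both covered inner starts, with summits 2.69 and 2.71 kb from the outermost start.

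A further 7 receptor genes had H3K27ac peaks inside the gene and none at an end. EGFR, the receptor for EGF, had 4 peaks in each list. The BPP peaks lay 46.99, 59.7, 76.5 and 114.2 kb downstream of the outer start, and the CTR peaks 60.1, 76.5, 114.2 and 185.8 kb. Thus 3 places were shared, and each list had 1 EGFR peak of its own. The shared peak with the highest −log10 q was at 114.2 kb, where the fold was 5.09 for BPP (chromosome 7, 55132888 to 55134049; −log10 q 13.4) and 4.91 for CTR (55132843 to 55134301; −log10 q 10.5). INSR, the insulin receptor, had 2 shared peaks. The first lay 96.7 kb into the gene, where the fold was 7.45 for BPP (chromosome 19, 7197229 to 7198137; −log10 q 20.2) and 7.47 for CTR (7197416 to 7198137; −log10 q 16.4). The second lay 141.2 kb in, with folds of 7.43 and 5.44. The peak at 96.7 kb had the highest fold of any receptor peak in each list. An IgG peak (fold 3.58) lay 27.99 kb from it.

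ERBB2, which encodes HER2, had 3 BPP peaks and 1 CTR peak inside the gene, sharing a place 7.4 kb from the start (fold 3.68 in BPP) or 7.7 kb by the summit of the CTR peak (fold 4.16). EPHA2, an ephrin receptor, had 4 BPP and 2 CTR peaks. The 2 CTR peaks (folds 2.16 and 2.38) both touched a broad BPP peak of 1679 bp (fold 2.24). FGFR1 had 1 peak inside in each list, and these overlapped (fold 4.67 in BPP and 3.63 in CTR). IGF1R had 2 BPP peaks (folds 4.11 and 4.50) 205.9 and 217.1 kb into the gene and no CTR peak, with an IgG peak (fold 4.29) at 13.8 kb, and FGFR4 had 1 BPP peak (fold 3.09) and no CTR peak. IGF1R and FGFR4 were the receptors with peaks in 1 H3K27ac list alone.

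The other 8 receptors had no H3K27ac peak over the gene or at its ends. They were ERBB4, MET (the receptor for HGF), FGFR2, FGFR3, PDGFRA, PDGFRB, KIT (the receptor for stem cell factor) and EPHB4. Their nearest BPP peak lay 1.96 kb from the span for FGFR3 and 40.1 kb for EPHB4, and more than 100 kb away for the other 6. The largest distances were 593.8 kb for KIT and 745.6 kb for ERBB4. In CTR, PDGFRB had a peak 7.26 kb from its span and FGFR3 one at 12.9 kb. ERBB4 had 1 IgG peak inside the gene.

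**Figure D2:**
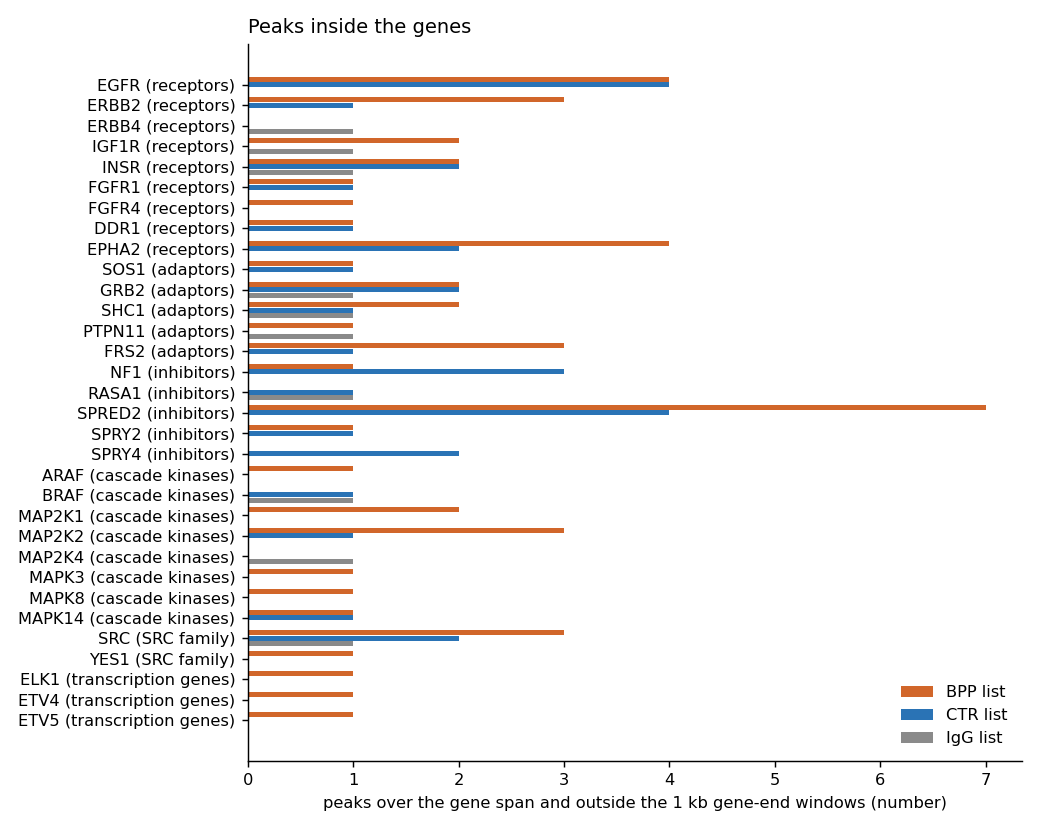
Number of peaks (x axis) over the gene span and outside the 1 kb gene-end windows, for the 32 genes with such a peak in any list. SPRED2 leads with 7 BPP and 4 CTR peaks, followed by EGFR with 4 in each and EPHA2 with 4 and 2, while no gene has more than 1 IgG peak.

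All 7 genes of the adaptor group had a gene-end peak in CTR, and 5 also in BPP. SOS1, a guanine nucleotide exchange factor for RAS, had 2 shared places. The outer peak lay 0.72 kb inside the start, where the fold was 5.68 for BPP (chromosome 2, 39123903 to 39124370; −log10 q 15.8) and 6.33 for CTR (39123910 to 39124370; −log10 q 19.3). The inner peak, 3.56 kb from the outer start by the BPP summit and next to an inner annotated start, had a fold of 5.33 in BPP (−log10 q 15.2) and 2.92 in CTR (−log10 q 3.16). SOS1 kept its class in all 6 alternative settings. FRS2, the docking protein of FGF receptors, had a shared start peak where the fold was 4.39 for BPP (chromosome 12, 69470293 to 69470944; −log10 q 6.11) and 7.98 for CTR (69470362 to 69470955; −log10 q 20.4). By −log10 p the CTR peak ranked at 8.65% from the top of its list and the BPP peak at 61.6%. BPP had 3 further FRS2 peaks, of fold 4.03 to 6.25, and CTR 1 of fold 4.83, and none of these overlapped.

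GRB2, the adaptor that carries SOS to receptors, had 3 peaks in each list, and each overlapped one of the other list. The start peak had a fold of 4.09 in BPP and 4.29 in CTR, and the peak 11.7 kb inside had a fold of 4.79 in BPP (−log10 q 14.7) and 4.91 in CTR (−log10 q 14.1). An IgG peak (fold 4.87) lay 16.8 kb from the nearest H3K27ac peak. GAB1, a docking protein, had overlapping peaks at its lower-coordinate end where the fold was 6.88 for BPP (chromosome 4, 143335721 to 143336358) and 5.85 for CTR (143335947 to 143336877). SHC1 had the highest −log10 q of all BPP peaks of the 55 genes, at the inner start printed above, 26.1 in BPP (chromosome 1, 154970556 to 154971645; fold 3.40) and 18.7 in CTR (154970355 to 154971450; fold 3.29). IgG also had a peak there (154970432 to 154970772; fold 4.67, −log10 q 2.75), the only IgG peak in the 55 genes that overlapped H3K27ac. The part of background in that signal was not tested. The outer SHC1 start had a peak in both lists as well (fold 2.79 in BPP and 2.66 in CTR), which also lay at the start of CKS1B. At the far end of SHC1, CTR had a peak (154961519 to 154961985; fold 3.79, −log10 q 14.2) within 1 kb of an annotated start of PYGO2. The nearest BPP peak to it was 2.76 kb away.

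SOS2 and PTPN11 had a gene-end peak in CTR only. SOS2, the paralogue of SOS1, had a CTR peak at its start (chromosome 14, 50231712 to 50232353; fold 5.98, −log10 q 8.62) and no BPP peak within 17.8 kb of it. A weaker CTR peak (fold 4.23) lay at its other end, at the start of VCPKMT. PTPN11, which encodes the phosphatase SHP2, had a CTR peak at its lower-coordinate end (chromosome 12, 112418878 to 112419394; fold 5.54, −log10 q 12.1), and the window of RPL6 reached it too. The nearest BPP peak was 9.23 kb away. BPP had 1 PTPN11 peak far inside the gene (fold 4.23, −log10 q 3.59), and IgG 1 of fold 4.29 that overlapped neither.

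NRAS, a RAS GTPase, had a BPP peak over its start (chromosome 1, 114716216 to 114717091; fold 4.91, −log10 q 6.80) that covered all 300 bases printed above. The nearest CTR peak was 40.3 kb away. HRAS had no peak within 1 kb, and its nearest peak was at 1.99 kb in BPP and 1.95 kb in CTR, so that windows of 2 kb counted it in both lists.

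**Figure D3:**
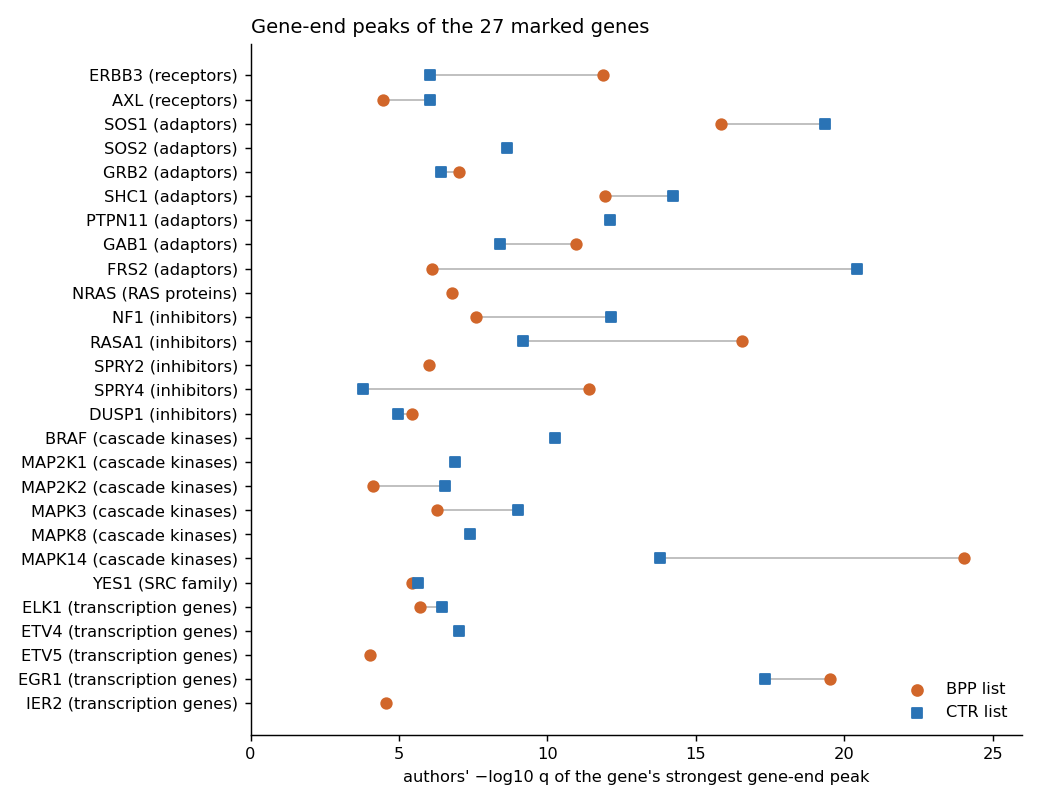
Authors' −log10 q (x axis) of the strongest gene-end peak of the 27 genes with one, circles for BPP and squares for CTR, with a line where both lists have one. MAPK14 has the highest BPP value at 24.0 and FRS2 the highest CTR value at 20.4, while the 4 genes with BPP alone lie between 4.01 and 6.80 and the 6 with CTR alone between 6.90 and 12.1. For SHC1 the CTR square is the peak at its far end, within 1 kb of an annotated start of PYGO2. The 2 SPRY4 peaks shown do not overlap each other.

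Of the 10 genes that restrain the pathway, NF1, RASA1, SPRY4 and DUSP1 had a gene-end peak in both lists and SPRY2 in BPP only. NF1 and RASA1 encode GTPase-activating proteins that switch RAS off. NF1 had overlapping start peaks, where the fold was 4.56 for BPP (chromosome 17, 31094610 to 31095076; −log10 q 7.58) and 5.41 for CTR (31094678 to 31095921; −log10 q 12.2). A second shared NF1 place, 35.7 kb inside by the BPP summit, had a fold of 7.65 in BPP (31130295 to 31131429; −log10 q 23.1) and 5.52 in CTR (31130557 to 31131449; −log10 q 10.6). CTR had 3 further NF1 peaks that BPP lacked, with folds from 4.18 to 4.63. RASA1 had overlapping start peaks with a fold of 6.89 in BPP (−log10 q 16.6) and 5.17 in CTR (−log10 q 9.19). CTR had a second RASA1 peak inside (fold 3.77), and IgG 1 (fold 4.41) 23.3 kb or more from either H3K27ac list.

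SPRY2 and SPRY4 are Sprouty proteins, feedback inhibitors of receptor signalling. SPRY2 had a shared peak inside the gene (chromosome 13, 80337149 to 80337716 in BPP, fold 4.69, −log10 q 14.3; fold 3.91 and −log10 q 6.78 in CTR). Its BPP-only peak covered an annotated start (80340013 to 80340446; fold 3.18, −log10 q 5.999). At SPRY4 the gene-end peaks of the lists shared no base. The BPP peak had its summit at -2.17 kb from the start (chromosome 5, 142325949 to 142326872; fold 3.26, −log10 q 11.4). A CTR peak 1.22 kb from the gene span, and so outside the window, overlapped it by 453 bp (142326243 to 142326695; fold 3.66, −log10 q 12.4). Within the SPRY4 window and span CTR had 3 other peaks, with summits from -0.39 to 9.43 kb and folds of 2.32 to 4.03. DUSP1, a phosphatase that inactivates MAP kinases, had a start peak of fold 3.18 in BPP and 3.11 in CTR.

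SPRED2, which binds NF1 and restrains RAS, had 7 BPP and 4 CTR peaks, all inside the gene. It was the gene of the list with the most peaks in BPP. Of its 7 BPP peaks, 3 overlapped a CTR peak, and of its 4 CTR peaks, 3 overlapped a BPP peak, 1 of these pairs by only 3 bp. The folds ranged from 3.44 to 4.47 in BPP and from 3.09 to 3.63 in CTR, and no peak lay within 1 kb of an annotated start. SPRED1, DUSP4, DUSP5 and DUSP6 had no H3K27ac peak over the gene or at its ends. DUSP6, an ERK phosphatase induced by ERK signalling, was 101.4 kb from the nearest BPP peak and 173.1 kb from the nearest CTR peak.

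**Figure D4:**
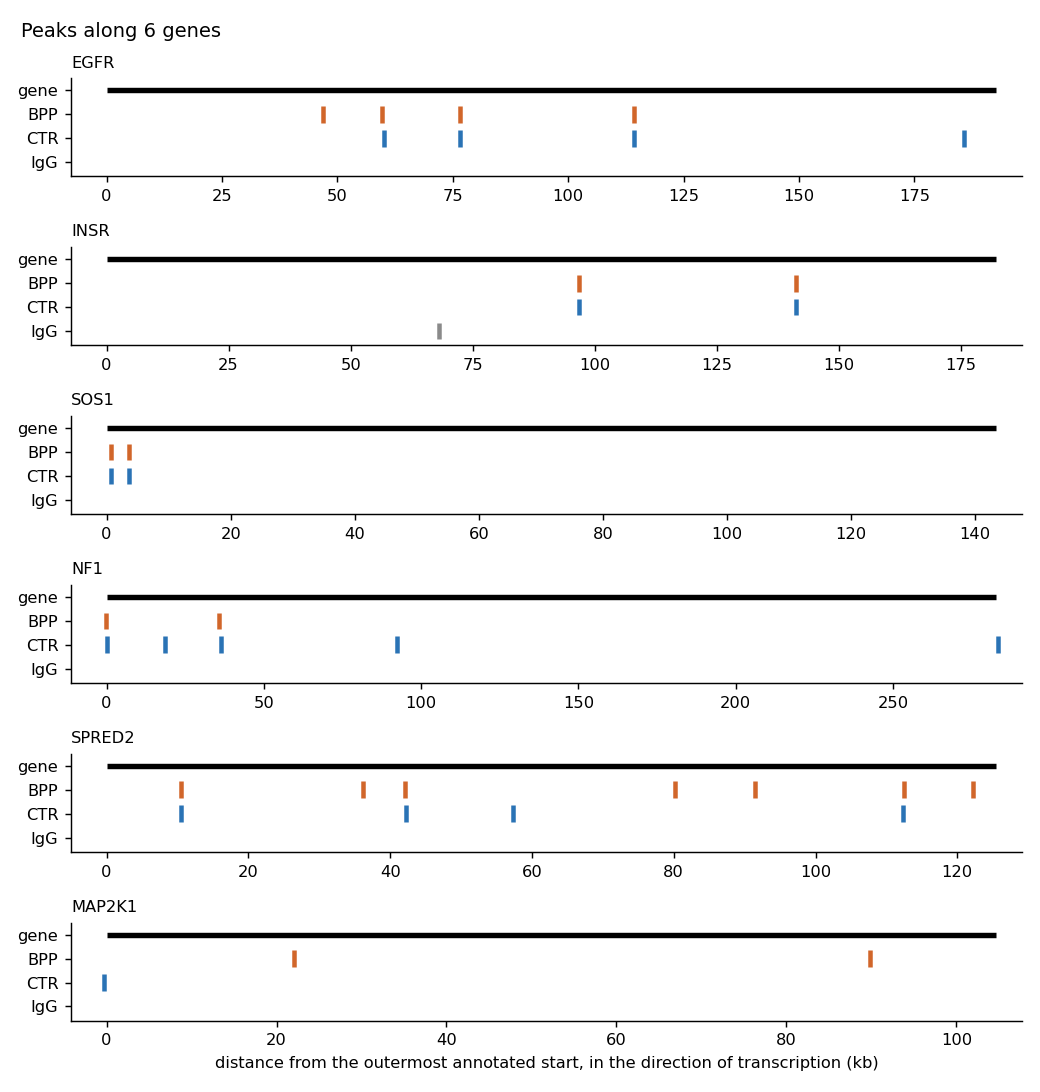
Peaks along EGFR, INSR, SOS1, NF1, SPRED2 and MAP2K1, each as a tick at its summit, with the distance from the outermost annotated start in the direction of transcription on the x axis (kb). EGFR, INSR and SPRED2 have peaks inside and none at the start, SOS1 and NF1 have shared start peaks, and MAP2K1 has a start peak in CTR and 2 inner peaks in BPP.

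Of the 10 cascade kinases, MAPK14, MAPK3 and MAP2K2 had a gene-end peak in both lists and BRAF, MAP2K1 and MAPK8 in CTR only. MAPK14 encodes p38 alpha, a stress-activated kinase. Its start peak reached fold 8.01 for BPP (chromosome 6, 36028191 to 36028743; −log10 q 24.0) and 6.43 for CTR (36028288 to 36028737; −log10 q 13.8). Among gene-end BPP peaks of the 55 genes it had the highest −log10 q. Each list had 1 further MAPK14 peak inside, of fold 4.24 in BPP and 4.70 in CTR, at different places. MAPK3 encodes ERK1. Its peaks (fold 3.32 in BPP and 3.98 in CTR) lay at the far end of the gene, 9.3 kb from its start, and also within reach of GDPD3. No MAPK3 peak lay within 1 kb of the MAPK3 start. MAP2K2 encodes MEK2, and its start peak had a fold of 2.85 in BPP and 3.65 in CTR.

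BRAF, a RAF kinase activated by RAS, had a CTR peak at its start (chromosome 7, 140924228 to 140924665; fold 6.71, −log10 q 10.2) that covered 291 of the 300 bases printed above. A second CTR peak lay 11.1 kb inside (fold 5.19). No BPP peak lay within 89.97 kb of the start peak. The nearest IgG peak to the start peak was 1.69 kb away, beyond the 1 kb window. An IgG peak inside the gene (fold 4.87, −log10 q 3.10) lay 13.8 kb from the nearest CTR peak. MAP2K1 encodes MEK1, and had a CTR peak at its start (chromosome 15, 66386507 to 66387404; fold 4.40, −log10 q 6.90), which also lay at the start of TIPIN. In BPP, MAP2K1 had no gene-end peak and 2 peaks inside the gene, 22.1 kb (fold 4.89) and 89.8 kb (fold 3.85) from the start. MAPK8 encodes JNK1, and had a CTR peak at its start (chromosome 10, 48306726 to 48307288; fold 5.65, −log10 q 7.38) and a BPP peak 27.4 kb inside (fold 4.34, −log10 q 3.98).

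The other 4 kinases had no gene-end peak. ARAF had 1 BPP peak inside (fold 3.09). MAP2K4 had 1 IgG peak inside (fold 3.58). MAP2K4, MAP2K7 and MAPK9 had no H3K27ac peak over the gene or at its ends, although for MAPK9, which encodes JNK2, the nearest peaks were 1.07 kb away in BPP and 1.12 kb in CTR. Of the SRC family, SRC had a strong shared place inside the gene, where the fold was 5.48 for BPP (chromosome 20, 37378773 to 37379606; −log10 q 23.4) and 6.32 for CTR (37378783 to 37379551; −log10 q 24.8). This was the CTR peak of the 55 genes with the highest −log10 q. An IgG peak of fold 6.67 lay 3.78 kb from it. YES1 had a start peak of fold 3.94 in BPP and 3.83 in CTR.

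Of the transcription genes, EGR1 and ELK1 had a gene-end peak in both lists, ETV5 and IER2 in BPP only, ETV4 in CTR only and ETS2 in neither. EGR1 is an immediate early gene induced by ERK through serum response factor and ELK proteins. The peak in BPP (chromosome 5, 138463877 to 138464635; fold 5.26, −log10 q 19.5) and that in CTR (138464250 to 138465357; fold 5.46, −log10 q 17.3) overlapped, with summits at -1.04 and -0.85 kb from the start. The CTR peak covered 129 bases of the printed promoter. ELK1, an ETS factor phosphorylated by ERK, had a start peak of fold 3.84 in BPP and 4.07 in CTR, within reach of the UXT window.

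ETV4 and ETV5 are ETS factors induced by FGF and ERK signalling. ETV5 had BPP peaks of fold 3.55 (−log10 q 4.01) at its higher-coordinate end and 4.36 inside, and its nearest CTR peak was 102.8 kb from the gene. ETV4 had a CTR peak at its higher-coordinate end (chromosome 17, 43545210 to 43545752; fold 4.00, −log10 q 7.01), within reach of DHX8, and a BPP peak inside of fold 3.15. These peaks lay 2.90 kb apart. IER2, an immediate early gene, had a BPP peak at its far end of fold 2.64 (−log10 q 4.55), 3.86 kb from the start. The IER2 start itself had none.

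The 10 genes with a gene-end peak in 1 list differed in where those peaks stood within their own list. The strongest gene-end CTR peak of each of the 6 genes ranked from 22.2% (PTPN11) to 52.8% (MAP2K1) of the CTR list by −log10 p. BRAF stood at 29.3%, SOS2 at 38.01%, MAPK8 at 48.2% and ETV4 at 51.7% from the top. The second gene-end peak of SOS2, at its far end, ranked at 87.1%, so the ranks in the 2 lists overlap. The 4 BPP peaks ranked at 53.0% (NRAS), 62.9% (SPRY2), 84.3% (IER2) and 91.5% (ETV5) of the BPP list. Ranks from lists of different length show no change in the mark. Counted at annotated starts of the 46 genes with an entry, 14 had a peak within 1 kb in both lists (25.9% of 15812 protein-coding genes did, and 40.4% had one in either), 2 in BPP only (NRAS and SPRY2; 6.43% of all) and 5 in CTR only (SOS2, SPRY4, BRAF, MAP2K1 and MAPK8; 8.08% of all).

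IgG had a peak over 10 of the 55 genes (18.2%), against 14.6% of all protein-coding genes. Over the span and windows together, 38 of the 55 genes had a peak in either H3K27ac list (69.1%, 55.2 to 80.9), against 52.3% of all protein-coding genes. The median span was 57.5 kb for the list and 24.2 kb for all, and the part of length in this share was not tested. Peaks inside the genes numbered 52 in BPP and 32 in CTR, or 1.032 and 0.635 per 100 kb of span, against 0.662 and 0.459 over all protein-coding genes. IgG had 10 peaks inside, or 0.199 per 100 kb against 0.258 over all. Receptors had 18 inner peaks in BPP and 11 in CTR, genes of the adaptor group 9 and 5, and cascade kinases 9 and 3. Inhibitors had 9 and 11, SRC family genes 4 and 2, transcription genes 3 and 0, and RAS genes none. Per 100 kb of span, kinases had 1.14 in BPP and 0.379 in CTR, and inhibitors 1.29 and 1.58. SPRED2 alone held 7 BPP and 4 CTR inner peaks among the inhibitors. The BPP list is the longer one, and differences between roles were not tested.

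Of the 73 BPP peaks of the list, 37 overlapped a CTR peak (50.7%, 38.7 to 62.6), against 50.04% of the whole BPP list. At gene ends 17 of 21 did (81.0%, 58.1 to 94.6, against 69.9% of gene-end BPP peaks overall), and inside genes 20 of 52 (38.5%, 25.3 to 52.98, against 37.2%). Of the 58 CTR peaks, 37 overlapped a BPP peak (63.8%, 50.1 to 76.01), against 59.6% of the whole CTR list. At gene ends the count was 16 of 26 (61.5%, 40.6 to 79.8, against 69.6%), and inside genes 21 of 32 (65.6%, 46.8 to 81.4, against 53.5%). Every one of these intervals included the share of the whole list. Median −log10 q of the 73 BPP peaks was 6.27, against 7.11 for the whole list, and of the 58 CTR peaks 6.43 against 7.18. At gene ends the medians were 6.80 against 9.15 for gene-end peaks overall in BPP, and 7.89 against 9.10 in CTR. Inside genes they were 6.10 against 6.27 in BPP and 5.91 against 5.99 in CTR. These differences were not tested.

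A further list held 165 genes of the same pathways, none of them among the 55. Of these, 29 were marked at an end in both lists, 13 in BPP only, 11 in CTR only and 5 in IgG. Over all protein-coding genes the shares were 23.6%, 7.03%, 7.57% and 2.13% in the same order. In either H3K27ac list 53 of the 165 were marked (32.1%, 25.1 to 39.8), against 38.2% of all protein-coding genes. Of 32 other receptor genes 3 were marked (9.38%, 1.98 to 25.02), and of 35 ligand genes 2 (5.71%, 0.700 to 19.2). With the 18 receptors above, 5 of 50 receptor genes were marked (10.0%, 3.33 to 21.8). The further list was also chosen with earlier results of these data known, so it is no independent check of the receptor share. The further RAS and adaptor genes had 9 of 26 marked (34.6%, 17.2 to 55.7), beside 7 of 7 for the adaptor group above. The interval includes the 38.2% of all genes. The further inhibitors had 14 of 23 genes marked, the kinases 15 of 32 and the transcription genes 10 of 17.

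Of this further list, the genes with the highest −log10 q in BPP only were ELK4 (fold 5.78), an ETS partner of serum response factor, MAP2K5 (fold 5.14), the MEK of ERK5, PHLDA1 (fold 4.56) and DUSP7 (fold 2.92), an ERK phosphatase. In CTR only they were PTPN2 (fold 5.84), a tyrosine phosphatase, LZTR1 (fold 4.69), an adaptor for degradation of RAS proteins, MAPKAPK5 (fold 4.44) and EPHA5 (fold 4.18). These classes hold for gene ends alone: inside the gene BPP had 2 peaks at PTPN2 and 3 at EPHA5, and EPHA5 was marked in both lists at an annotated start. DUSP7 and PTPN2 had no peak of either H3K27ac list within 1 kb of an annotated start. The LZTR1 peak was also within reach of AIFM3. ERRFI1, a feedback inhibitor of EGFR, was picked after its values were seen. It had the highest −log10 q of the 165 in both lists, 127.9 in BPP (chromosome 1, 8026665 to 8027496; fold 12.3) and 98.5 in CTR (8026421 to 8027485; fold 10.7).

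The class of a gene depended on the threshold for many of the 27 marked genes. In 6 alternative settings, SOS1 and MAPK14 had a gene-end peak in both lists each time, and PTPN11 and BRAF one in CTR only each time. None of the 4 genes with a peak in BPP only kept that class in all 6. GAB1 and SPRY4, marked in both lists here, each fell to BPP only with the 5000 top peaks and to CTR only with windows of 500 bp.

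**Figure D5:**
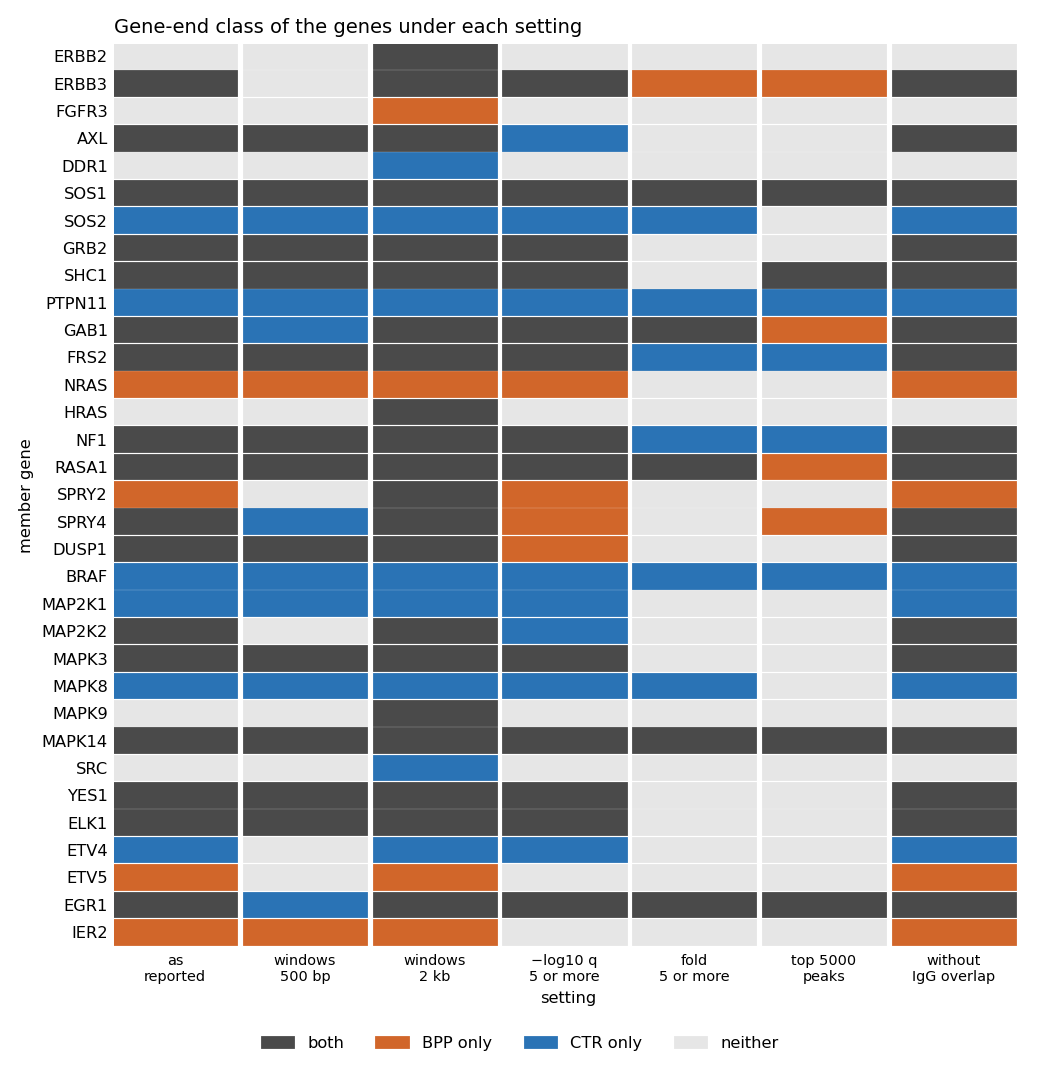
Gene-end class (colour) of the 33 genes marked in at least 1 setting (y axis) under the reported setting and 6 alternatives (x axis). Rows of 1 colour throughout are SOS1, PTPN11, BRAF and MAPK14, while the columns of fold 5 or more and of the top 5000 peaks leave most genes in neither list.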

How the data were processed

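H3K27ac (BPP and CTR) and IgG were profiled by CUT&Tag in A2780 cells, with 1 library per group. Groups come from the sample titles. The tools named, per the submitters' processing notes, are deepTools 3.3.0, Bowtie2 2.4.1 and fastp, with build GRCh38.p13. Which program called peaks, and whether IgG was its control, is not given in the sources used here. Each library has 1 peak list deposited by the authors, not pooled. The deposited score of every peak equals 10 times its −log10 p cut to a whole number. The deposited fold is a ratio over an undescribed background. The deposited −log10 p and −log10 q come from the authors' caller, and no −log10 p is below 5. Read numbers, and so depth, are unknown, which limits what a missing peak can show.

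Only peaks of chromosomes 1 to 22 or X entered, which left out 28 BPP, 37 CTR and 14 IgG peaks. Genes are spans of a RefSeq table (GRCh38.p14, the same chromosome coordinates) without exons, so exons, introns and UTRs were not separated. Strand and starts came from the RefSeq promoter table. A gene-end peak overlaps by at least 1 bp a window of 1 kb either side of a gene end. Shares carry exact 95% binomial intervals. Coordinates count from 1. No test between conditions was possible. Every gene of the list is accounted for. Fullest values go to those with a gene-end peak in 1 list only or an IgG peak, and to up to 4 per role by −log10 q; of the further list, up to 4 per class are named by −log10 q. The members and lists were chosen with earlier results of these data known. Python 3.11.15, numpy 2.4.6, pandas 2.3.3 and scipy 1.17.1 were used, and the overlap step was checked on simulated peaks and against bedtools 2.31.1. Alternatives were other windows, stricter peaks, equal numbers of peaks, removal of peaks overlapping IgG and other overlap rules.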

Additional observations from a re-analysis of the deposited data

How the results depend on the processing

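At a fold of at least 5, 5 of the 55 genes were marked at an end in both lists and 1 in BPP only, 15 had any peak over the span or windows and 9 one at an annotated start. With the 5000 peaks of highest −log10 p in each list, 4 were marked at an end in both lists, 19 had any peak and 9 one at a start. Windows of 500 bp left 2 genes in BPP only, and windows of 2 kb gave 1 gene, BRAF, a gene-end peak in IgG. The share of the 55 genes marked in both lists thus fell from 30.9% to 9.09% at fold 5 and 7.27% with 5000 peaks. That of all protein-coding genes fell from 23.6% to 11.3% and 10.2%. The list stood above all genes as reported and below them here, by few genes (5 and 4 of 55). No interval was computed for these shares, so a change of order cannot be read from them. Requiring overlap of at least 50% of both peaks lowered the share of BPP peaks overlapped by CTR to 35.6%. These settings keep fewer or other peaks by construction. The other 28 values were within 1.5 times of, or within the interval of, those reported. Windows of 2 kb added ERBB2, HRAS, MAPK9, FGFR3, DDR1 and SRC to the marked genes. No paired analysis was possible because each group has 1 library.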
